A study of Danio rerio with 15 samples.

Results

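Neurotransmitter receptor subunit genes encode the proteins with which nerve and muscle cells receive chemical signals. All genes were taken whose symbol in the deposited tables begins with gria, grin1 to grin3, grik, grm with a digit up to 8, gabr, glra, glrb, chrn, chrm, htr1 to htr7 or drd1 to drd7. The rule found 121 genes of the 24609 listed in any of the 3 count tables, and it used no measured value. Of these, 104 had enough reads to be tested and 17 did not. A few receptor genes with upper-case symbols, such as GRIK2 and HTR3C, do not match the rule and were left out.

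RNA from whole TL zebrafish larvae was sequenced at an age of 4 days, after they had been raised in water with methylene blue and PTU, a blocker of pigment formation. The 15 libraries form 5 groups of 3 biological replicates, per the labels. Wild-type larvae and triple mutants, which carry mutations in tfeb, in tfe3a and in tfe3b, were each sampled without injection and after injection of zymosan A, yeast cell wall particles used as an inflammatory challenge. The last group holds rraga mutants, which were not injected. The 3 mutated transcription factor genes encode regulators of lysosomal genes, and rraga encodes the RagA GTPase that acts at the lysosome. The study asked how far Tfeb and Tfe3 drive lysosomal pathways during inflammation, with rraga mutants for comparison. The larvae were examined under a confocal microscope and snap frozen. No group was injected without zymosan, so changes with zymosan cannot be told apart from changes with the injection. The lesion in each allele, the parents of each group and the number of larvae per library were not stated. The spread behind each p-value is that between the 3 libraries of a group, which may be partly technical. Each comparison of whole larvae also cannot tell fewer cells of a type apart from less RNA per cell.

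Library totals ran from 12314113 to 17566540 counts. Pairs of replicates differed by more than sampling noise in every group, and zymosan-injected wild-type replicate 3 stood furthest from its group, with a chi-square per degree of freedom of 20.28 to 21.77 against at most 14.03 in all other pairs. Of the targeted genes, tfe3b was at 0.108 ± 0.0317 CPM (the counts scaled to a common library size; mean ± SD, n = 3) in uninjected triple mutants against 1.68 ± 0.481 in uninjected wild type, whereas tfeb and tfe3a RNA did not pass the test. In rraga mutants rraga RNA was higher, at 26.0 ± 0.928 against 14.7 ± 2.72 CPM (edgeR adjusted p = 0.000338).

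Fast receptors are ion channels that open when a transmitter binds. AMPA, kainate and NMDA receptors are channels for glutamate and carry most excitation in the brain. GABA-A and glycine receptors are chloride channels that carry inhibition. Nicotinic acetylcholine receptors and the type 3 serotonin receptors belong to the same pentameric channel family as GABA-A receptors. The nicotinic receptor of skeletal muscle is built from its own subunits, and in mammals the gamma subunit of the fetal receptor is replaced by epsilon as the junction matures. Metabotropic glutamate, muscarinic, dopamine and most serotonin receptors act more slowly through G proteins. Many of these genes exist as pairs of copies in zebrafish, written a and b. Their sequences were not used here.

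Levels are compared between genes as CPM per kilobase of gene length as the tables give it, averaged over the 3 uninjected wild-type libraries. Summed in this way, the 21 GABA-A subunit genes reached 116 CPM per kb, the 12 NMDA genes 83.0, the 12 metabotropic glutamate genes 48.7, the 8 AMPA genes 44.0 and the 6 muscle-type nicotinic genes 34.6. The 16 other nicotinic genes summed to 31.7, the 8 muscarinic genes to 18.0, the 5 glycine genes to 15.3, the 11 dopamine genes to 15, the 16 G protein-coupled serotonin genes to 14.7 and the 4 kainate genes to 13.2 CPM per kb. The 2 type 3 serotonin genes were lowest, at 1.82 CPM per kb. Inhibitory GABA-A channels and NMDA channels thus had the largest summed levels among these 12 classes.

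The leading gene of each class was set apart in the same unit. The obligatory NMDA subunit gene grin1a had 30.7 CPM per kb, the extrasynaptic GABA-A subunit gene gabrd 24.6 and the AMPA subunit gene gria3a 20.9. The muscle nicotinic subunit gene chrna1, which carries the acetylcholine binding site, had 15.8. Group III metabotropic receptor gene grm4 had 12.4 CPM per kb, the Gi-coupled muscarinic gene chrm4a 10.5, the glycine receptor gene glra1 7.77 and the neuronal nicotinic gene chrnb2b 7.14. The serotonin gene htr1aa had 5.41, the dopamine gene drd1b 5.12, the kainate gene grik1b 4.60 and the serotonin channel gene htr3a 1.19 CPM per kb. Of these 12 leading genes, grin1a, chrna1, htr1aa, drd1b and htr3a passed the test in no comparison, gabrd, gria3a, grm4, glra1 and grik1b passed in 1, and chrm4a and chrnb2b passed in more than 1.

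The 17 untested genes were thinly read, with totals over all 15 libraries of at most 102 counts. They are 4 muscarinic genes (chrm1a, chrm2b, chrm3b and chrm5b), 6 serotonin genes (htr1ab, htr1d, htr1fa, htr1fb, htr2cl2 and htr5aa), 3 dopamine genes (drd1a, drd2l and drd6b), 3 nicotinic genes (chrnb1l, chrna4a and chrna9) and 1 metabotropic glutamate gene. Differences in these genes were not detectable at this depth.

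Across 6 contrasts fitted in 1 model with edgeR's quasi-likelihood test and Benjamini-Hochberg adjustment over 19006 genes, 29 of the 104 tested receptor genes passed an adjusted p of 0.05 at least once and 75 never did. Of all 19006 genes, 6446 (33.9%) passed at least once, a share above that of the receptors. A set of 3 comparisons, the uninjected triple mutants, the rraga mutants and zymosan in wild type, shares the uninjected wild-type libraries, and others share groups too, so their values stand side by side and are not independent of each other.

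**Figure D1:**
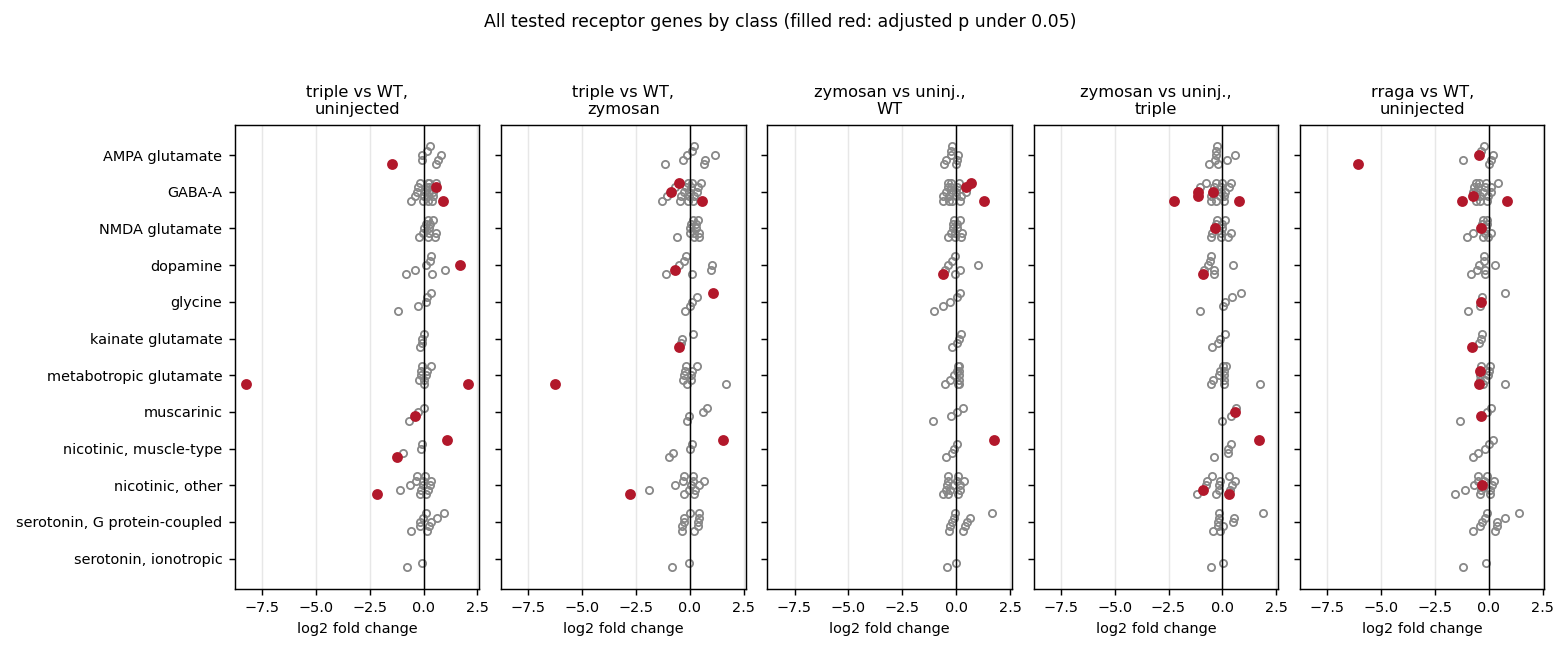
Log2 fold change (x axis) of each of the 104 tested receptor genes, in rows by receptor class, for 5 comparisons. Filled red points passed an adjusted p of 0.05 and open points did not, and the farthest points to the left are grm2b in both triple-mutant panels (-8.24 and -6.24) and gria3b in the rraga panel (-6.07).

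In uninjected triple mutants 5 receptor genes were higher and 5 lower than in uninjected wild type. That is 9.62% of those tested, beside 9.77% of all genes (3.93% higher, 5.84% lower), so as a class the receptors were called about as often as any gene. The group II metabotropic gene grm2b and the nicotinic gene chrnb3a fell furthest among the calls that held without any 1 library. The genes chrnb1 and gabrr2a rose and chrne fell. The median change of the tested receptors was 0.06 on the log2 scale, and 56.7% were positive against 50.0% of all genes. Without any 1 of wild-type replicate 1 or 2 or mutant replicate 3 only 3 receptors were higher, and without any 1 of wild-type replicate 2 or 3 or mutant replicate 1 only 3 were lower.

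After zymosan, triple mutants had 3 receptor genes higher and 6 lower than wild type, 8.65% of those tested beside 11.9% of all genes (5.21% higher, 6.66% lower). The genes grm2b and chrnb3a were again low and chrnb1 again high. The group means compared here come from other libraries than in the uninjected comparison, but both comparisons share the estimate of the spread. The cerebellar GABA-A gene gabra6a was also low. Without zymosan-injected wild-type replicate 3 the higher count was 5, and without mutant replicate 2 the lower count was 3.

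With zymosan injection few receptor genes changed in wild type: 4 rose and 1 fell, 4.81% of those tested beside 9.90% of all genes (6.07% higher, 3.83% lower). The rises in the retinal-type gene gabrr1 and the fetal muscle gene chrng held without any 1 library. Without uninjected replicate 2 or injected replicate 1 the higher count was 2. The single lower gene, drd4a, missed the threshold without any 1 of the 6 libraries, with adjusted p from 0.0739 to 0.126, and with no low-count filter (0.0650).

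In triple mutants 4 receptor genes were higher and 7 lower after zymosan injection, 10.6% of those tested beside 12.8% of all genes (7.64% higher, 5.18% lower). The falls in gabra6a, gabrg1 and drd4a and the rises in chrm4a and chrng held without any 1 library. Without uninjected mutant replicate 2 the counts were 2 higher and 3 lower, and without injected replicate 2 or 3 the lower count was 3. Whether the response to zymosan differed between genotypes was tested as an interaction. No receptor gene passed in either direction, beside 0.142% of all genes (0.0316% higher, 0.110% lower), and 4 of the 104 had an unadjusted p under 0.05 in edgeR. DESeq2 also called 0. Of these 4, gabra6a had a difference of -0.94 ± 0.25 (log2 ± SE, unadjusted p = 0.00108, edgeR adjusted p = 0.242), and gabrr2a, drd4b and grm2b had adjusted p of 0.773 to 0.809.

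The rraga mutants had the most one-sided pattern. One receptor gene was higher and 11 were lower than in uninjected wild type, 11.5% of those tested beside 14.0% of all genes. The lower calls were 10.6% of the receptors beside 6.41% of all genes, and the higher call was 0.962% beside 7.58%. The median change of the tested receptors was -0.29, and 79 of 104 had no positive change, so that 24.0% were positive against 50.2% of all genes. The lower count was 6 without wild-type replicate 1, 5 without wild-type replicate 2, 7 without wild-type replicate 3, 7 without mutant replicate 1, 6 without mutant replicate 2 and 16 without mutant replicate 3. The falls in gria3b and grik1b and the rise in gabrr1 held in each of these fits.

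The summed CPM of all 121 receptor genes was 1286, 1336 and 1420 in the rraga mutants, against 1564, 1566 and 1644 in uninjected wild type. It was 1577 to 1664 in zymosan-injected wild type, 1622 to 1769 in uninjected triple mutants and 1617 to 1660 in injected ones. All 3 rraga libraries lay below the other 12. By class, the rraga libraries lay below uninjected wild type without overlap for NMDA (433 to 471 against 500 to 529 CPM), GABA-A (200 to 241 against 243 to 267), AMPA (124 to 150 against 171 to 185), metabotropic glutamate (151 to 177 against 185 to 204), glycine (72.4 to 73.1 against 91.3 to 94.8) and kainate genes (34.5 to 39.0 against 49.8 to 53.3). The same held for the muscarinic genes (33.0 to 36.9 against 40.6 to 48.8) and the nicotinic genes outside muscle (93.6 to 98.7 against 108 to 121). Muscle-type nicotinic, dopamine and both kinds of serotonin receptor genes overlapped between these groups. The share of all genes without such overlap was not counted. A sum is led by its most abundant genes, so it does not show a fall in each gene of a class. In uninjected wild type chrm4a held 30.0 of the 43.6 CPM of the muscarinic genes on average. There glra1 held 68.2 of 92.9 CPM of the glycine genes and gria3a 70.7 of 177 CPM of the AMPA genes.

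**Figure D2:**
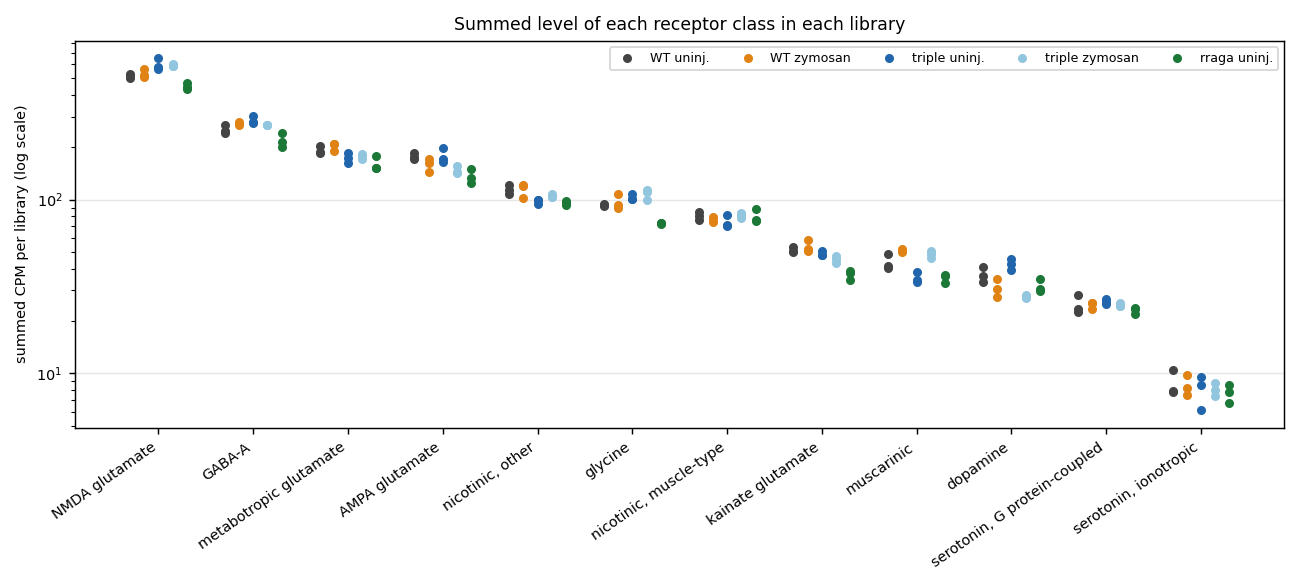
Summed CPM of each receptor class (y axis, log scale) in each of the 15 libraries, with classes ordered by their mean in uninjected wild type and points coloured by group. Groups are to be compared within a class; the 3 rraga libraries lie lowest for glycine (72.4 to 73.1) and kainate genes (34.5 to 39.0).

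Markers of neurons moved with the rraga pattern. Of a list of 33 neuronal genes, 30 were tested, and 16 (53.3%) were lower and 0 higher in rraga mutants, beside 6.41% lower and 7.58% higher of all genes, with a median change of -0.28. Their summed level was 7174 to 7607 CPM in the rraga libraries and 8496 to 9443 in uninjected wild type. Among them were vamp2 (-1.08 ± 0.12, edgeR adjusted p = 1.06e-06) and syn2a (-0.50 ± 0.11, edgeR adjusted p = 0.00288), which encode synaptic vesicle proteins. Their median lay near the receptors' -0.29. In uninjected triple mutants 1 neuronal marker was higher (3.33% beside 3.93% of all genes) and 0 lower (beside 5.84%). The higher one was vamp2 (0.58 ± 0.11, edgeR adjusted p = 0.0014). The count was also 1 and 0 between injected genotypes (beside 5.21% and 6.66% of all genes) and with zymosan in wild type (beside 6.07% and 3.83%). With zymosan in triple mutants it was 1 and 1 (3.33% each, beside 7.64% and 5.18%). What part the neuronal markers' change had in the receptors' change was not tested.

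The AMPA receptor genes were led by gria3b (ENSDARG00000037498, GRCz11 chromosome 14, 12533560 to 12837432, minus strand), a copy of the gene for the GluA3 subunit. It had 8.59, 8.97 and 8.45 CPM in uninjected wild type and 0.143, 0.221 and 0 CPM in rraga mutants, or 350 counts against 5. Uninjected triple mutants had 0.968, 4.46 and 3.83 CPM. Every rraga library was nearly empty of this RNA, and every triple-mutant library lay between those and the wild type. The change in rraga mutants was -6.07 ± 0.65 (edgeR adjusted p = 8.15e-07), and it was -6.76 without mutant replicate 2 and -5.51 without mutant replicate 3.

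In uninjected triple mutants the change of gria3b was -1.48 ± 0.42 (edgeR adjusted p = 0.0248). It missed the threshold without wild-type replicate 1, 2 or 3 or mutant replicate 1 (adjusted p = 0.0615 to 0.0995). After zymosan, wild type had 2.96, 7.17 and 7.49 CPM and triple mutants 3.42, 1.56 and 3.08, groups that overlapped and did not pass (-1.14, edgeR adjusted p = 0.0901). The other copy, gria3a, the most abundant AMPA gene per length, had 80.8, 63.6 and 67.6 CPM in uninjected wild type and 44.5, 45.7 and 64.5 in rraga mutants, which overlapped. Its change was -0.46 ± 0.13 (edgeR adjusted p = 0.0233), and it missed the threshold without wild-type replicate 1 or mutant replicate 1 or 2 (adjusted p = 0.117 to 0.141). The remaining 6 AMPA genes passed in no comparison.

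Of the NMDA receptor genes only grin2da, a copy of the gene for the GluN2D subunit of early brain receptors in mammals, passed a test. It was lower in rraga mutants, with 22.7, 29.9 and 31.0 CPM against 36.6, 37.9 and 34.4 in uninjected wild type (-0.38 ± 0.12, edgeR adjusted p = 0.0283). That call missed the threshold without wild-type replicate 1 or 2 or mutant replicate 1 (adjusted p = 0.0791 to 0.180) and with only these groups in the fit (0.0556). It was lower in triple mutants after zymosan than in uninjected ones (-0.36 ± 0.11, edgeR adjusted p = 0.0388), and this missed the threshold without any 1 of the 6 libraries (adjusted p = 0.0537 to 0.126). The obligatory subunit gene grin1a had 152, 168 and 172 CPM in uninjected wild type, 142, 166 and 153 in rraga mutants and 194, 206 and 181 in uninjected triple mutants, and it passed in no comparison. In rraga mutants 11 of the 12 NMDA genes had no positive change (median -0.20), and in uninjected triple mutants 10 of 12 were positive (median 0.23).

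Of the 4 kainate receptor genes, grik1b (ENSDARG00000040627, chromosome 15, 42599501 to 42679838) encodes a copy of the GluK1 subunit. It had 12.3, 13.6 and 10.5 CPM in uninjected wild type and 6.01, 7.21 and 8.26 in rraga mutants, without overlap. The change was -0.76 ± 0.18 (edgeR adjusted p = 0.00599), with leave-one-out values of -0.88 to -0.65. The partner copy grik1a was lower in triple mutants than in wild type after zymosan (-0.50 ± 0.15, edgeR adjusted p = 0.0256). It had 11.7, 13.7 and 14.7 CPM against 20.9, 17.3 and 18.6, and the call was lost without wild-type replicate 1 or mutant replicate 1 or 2 (adjusted p = 0.0683 to 0.136) and with only these groups in the fit (0.0519). None of the 4 kainate genes was positive in rraga mutants.

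The metabotropic glutamate gene grm2b (ENSDARG00000007195, chromosome 11, 36158134 to 36216651, plus strand) encodes a group II receptor, a class that in mammals sits on nerve endings and limits transmitter release. It had 14.9, 17.1 and 15.6 CPM in uninjected wild type, 16, 12.6 and 11 in injected wild type and 14.9, 14.4 and 19.0 in rraga mutants. In triple mutants it had 0.0691, 0.0557 and 0 CPM uninjected and 0.0743, 0.203 and 0.215 after zymosan. All 6 triple-mutant libraries were nearly empty of grm2b RNA and all 9 others were not. Summed over libraries, the uninjected mutants held 2 reads of it where wild type held 639. Scaled for depth, wild type was 362 times as high, with a 95% interval from 99.9 to 2997 that covers counting error only. The fitted change was -8.24 ± 0.38 uninjected (edgeR adjusted p = 5.99e-13) and -6.24 ± 0.33 after zymosan (edgeR adjusted p = 3.1e-12). The gene rrp9 overlaps grm2b on the opposite strand. Use of strand in the counting was not stated, so reads of the pair cannot be told apart in the overlap.

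**Figure D3:**
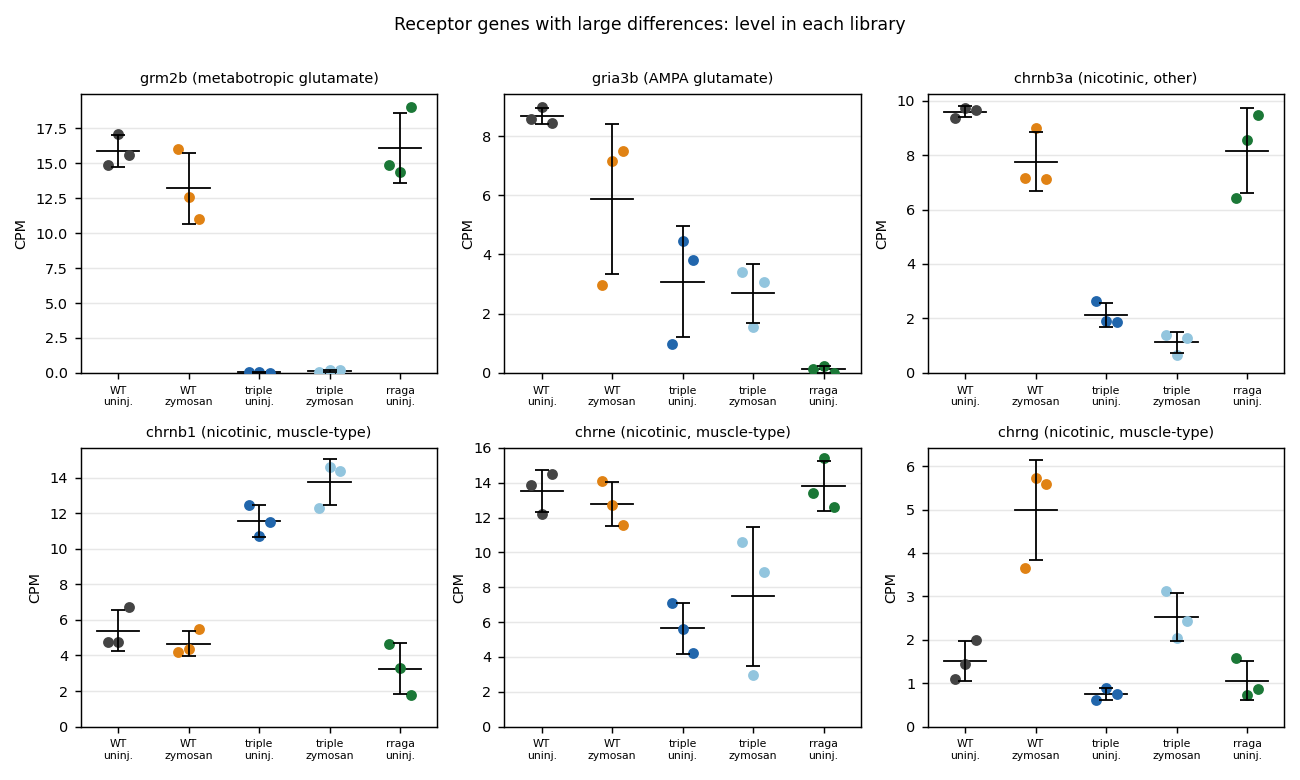
CPM (y axis) of 6 receptor genes in each of the 15 libraries; points are libraries, the long line is the group mean and the bars are 1 SD (n = 3). The triple-mutant points lie at the bottom for grm2b and chrnb3a and at the top for chrnb1, and the rraga points lie at the bottom for gria3b.

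A second group II gene, grm3 (chromosome 18), was higher in uninjected triple mutants, with 2.97, 2.67 and 5.11 CPM against 0.641, 0.226 and 1.74 (2.07 ± 0.59, edgeR adjusted p = 0.025). Wild type held only 33 counts of it. The change was 2.99 without wild-type replicate 3, and the call was lost without wild-type replicate 1 or 2 or mutant replicate 3 (adjusted p = 0.107 to 0.125). The group III genes grm4 and grm8b, whose proteins are presynaptic receptors in mammals, were lower in rraga mutants. The gene grm4 had 28.7, 27.6 and 31.5 against 38.6, 39.3 and 37.4 CPM, without overlap (-0.39 ± 0.11, edgeR adjusted p = 0.0182). The groups of grm8b overlapped (13.3, 13.4 and 18.3 against 17.6, 21.3 and 23.6 CPM, -0.47 ± 0.14, edgeR adjusted p = 0.0302). Without wild-type replicate 1 or 2 or mutant replicate 1 or 2 the adjusted p of grm4 was 0.0553 to 0.0781, and without wild-type replicate 2 or 3 or mutant replicate 1 or 2 that of grm8b was 0.0911 to 0.154. With only these groups in the fit that of grm8b was 0.0675.

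Of the 21 GABA-A subunit genes, 10 passed in at least 1 comparison, where 33.9% of all genes passed at least once. The gene gabra6a (ENSDARG00000075058, chromosome 14, 22152060 to 22168786) encodes the alpha6 subunit of cerebellar granule cells in mammals. It had 12.6, 11.5 and 12.5 CPM in uninjected triple mutants and 4.83, 5.69 and 6.37 after zymosan. In wild type it had 10.9, 12.3 and 12 uninjected and 11.4, 10.6 and 9.13 after zymosan. The 3 injected triple-mutant libraries thus lay below all 9 of these others. It fell with zymosan in triple mutants (-1.11 ± 0.18, edgeR adjusted p = 0.000126) and was lower in injected triple mutants than in injected wild type (-0.88 ± 0.18, edgeR adjusted p = 0.00184). The change in wild type was -0.18 (edgeR adjusted p = 0.610), and the difference between the genotypes, given above, did not pass. The gene nudcd2 overlaps it on the opposite strand, with 232 counts over all libraries against 2072.

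Its neighbour gabrb2, 3.3 kb away, also fell with zymosan in triple mutants, from 31.6, 34.2 and 34.4 to 26.2, 24.8 and 22.5 CPM (-0.44 ± 0.13, edgeR adjusted p = 0.0226). That call was lost without mutant uninjected replicate 2 or 3 or injected replicate 2 or 3 (adjusted p = 0.0599 to 0.111). The gene gabrg1 (chromosome 13), for a gamma1 subunit, fell in the same comparison from 13.2, 11.9 and 11.8 to 7.66, 4.81 and 4.58 CPM, without overlap (-1.11 ± 0.26, edgeR adjusted p = 0.00429). In wild type gabrg1 had 8.01, 10.9 and 12.5 CPM uninjected and 6.30, 8.55 and 5.98 after zymosan, which overlapped (-0.59, edgeR adjusted p = 0.165). The gene gabrp, whose pi subunit is found outside the brain in mammals, had 1.04, 5.35 and 1.80 CPM in uninjected and 0.892, 0.542 and 0.286 in injected triple mutants (-2.26 ± 0.67, edgeR adjusted p = 0.026). Its value was -1.30 without uninjected replicate 2 (adjusted p = 0.305), and the call was also lost without injected replicate 2 or 3 (adjusted p = 0.0810 and 0.119).

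The rho subunit genes gabrr1 and gabrr2a encode channels that in mammals are best known from retinal bipolar cells. The gene gabrr1 (ENSDARG00000043902, chromosome 20, 1132092 to 1151265) had 5.13, 6.79 and 4.70 CPM in uninjected wild type and 10.7, 17.2 and 12.1 after zymosan. It had 8.78, 6.85 and 7.28 in uninjected triple mutants, 14.1, 12.2 and 12.5 after zymosan, and 9.30, 11 and 10.2 in rraga mutants. Uninjected wild type was lowest and both injected groups were highest. It rose 2.40-fold with zymosan in wild type (1.27 ± 0.20, edgeR adjusted p = 0.000129) and 1.69-fold in triple mutants (0.76 ± 0.19, edgeR adjusted p = 0.00981). The latter was lost without uninjected mutant replicate 2 (adjusted p = 0.0549). It was the 1 receptor gene higher in rraga mutants (0.87 ± 0.20, edgeR adjusted p = 0.0048). The adjacent gene gabrr2b, 7.1 kb away, had -0.47, -0.76 and -0.53 in these comparisons and was never called.

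The gene gabrr2a (ENSDARG00000052982, chromosome 17, 15845765 to 15892623) had 6.80, 5.73 and 5.14 CPM in uninjected wild type, 11.5, 11.9 and 10.1 in uninjected triple mutants and 10, 8.55 and 10.5 in injected wild type. Both of these groups lay above uninjected wild type without overlap. It was higher in uninjected triple mutants (0.92 ± 0.19, edgeR adjusted p = 0.00238) and rose with zymosan in wild type (0.71 ± 0.19, edgeR adjusted p = 0.02). The zymosan call was lost without uninjected replicate 2 or 3 or injected replicate 1 or 3 (adjusted p = 0.0560 to 0.0930).

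Markers of photoreceptors and bipolar cells also moved. Of 20 tested, 4 were higher and 7 lower with zymosan in wild type, 3 higher and 10 lower with zymosan in triple mutants, 1 higher and 5 lower in uninjected triple mutants, and 5 higher and 11 lower in rraga mutants. In rraga mutants these are 25.0% and 55.0% of the list beside 7.58% and 6.41% of all genes, and with zymosan in wild type 20.0% and 35% beside 6.07% and 3.83%. With zymosan in triple mutants they are 15% and 50.0% beside 7.64% and 5.18%, and in uninjected triple mutants 5% and 25.0% beside 3.93% and 5.84%. Between injected genotypes it was 1 higher and 13 lower (5% and 65.0%, beside 5.21% and 6.66% of all genes). By the interaction test 6 had a lower response to zymosan in the triple mutants (30.0% beside 0.110% of all genes) and 0 a higher one (beside 0.0316%). The bipolar cell marker cabp5a was higher with zymosan in wild type (1.78 ± 0.25, edgeR adjusted p = 2.35e-05) and in triple mutants (2.00 ± 0.23, edgeR adjusted p = 1.46e-06). It was also higher in rraga mutants (1.22 ± 0.25, edgeR adjusted p = 0.0017). There replicate 3 had only 4.74 CPM, near the 4.23 CPM of uninjected wild-type replicate 1. Another marker of this list, vsx1, was lower in rraga mutants (-0.91 ± 0.27, edgeR adjusted p = 0.0244). Between injected genotypes vsx1 was lower (-0.90 ± 0.26, edgeR adjusted p = 0.026) and cabp5a higher (0.81 ± 0.22, edgeR adjusted p = 0.0161). With zymosan vsx1 passed in neither genotype. The list's summed level was 13766 to 17155 CPM in uninjected and 8042 to 12188 in injected wild type, 9823 to 12510 in uninjected and 4232 to 4658 in injected triple mutants, and 9544 to 10273 in rraga mutants. The part of these markers in the values of the rho genes was not tested.

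**Figure D4:**
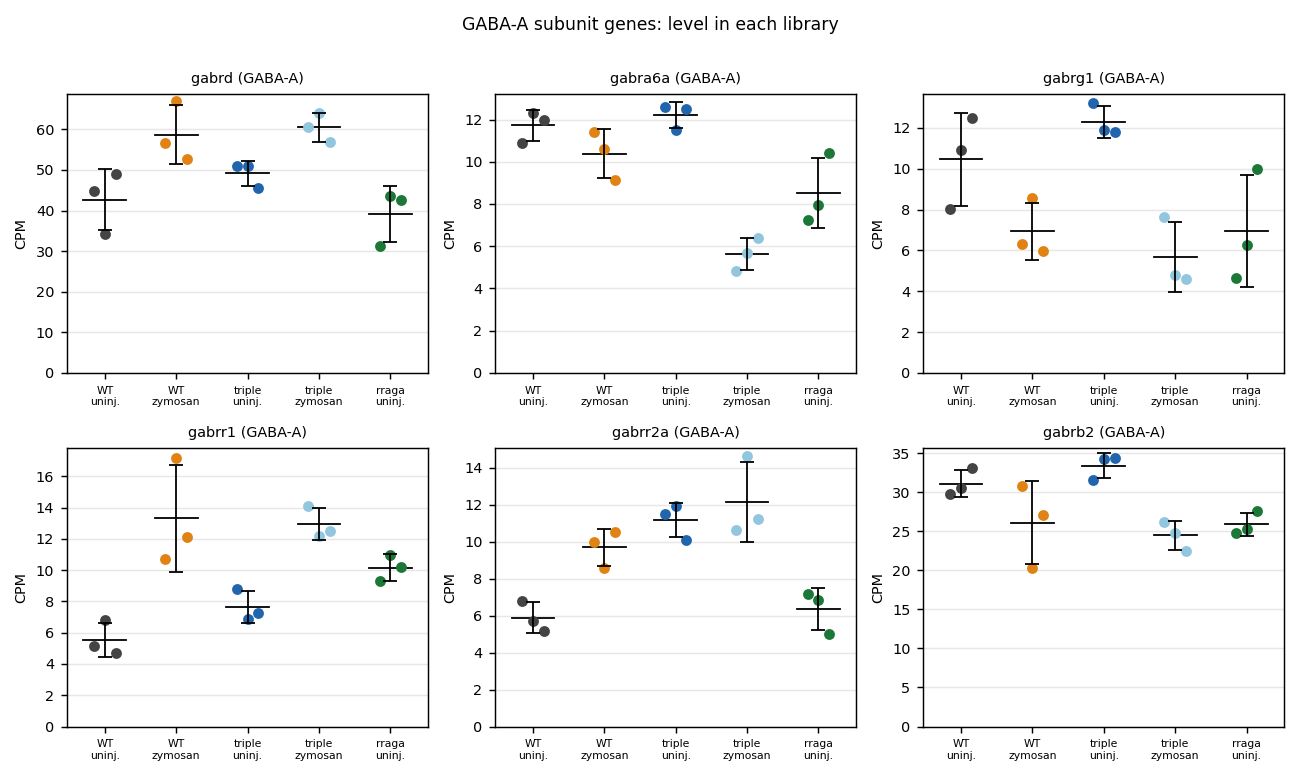
CPM (y axis) of 6 GABA-A subunit genes in each library; points are libraries, the long line is the group mean and the bars are 1 SD (n = 3). The injected triple mutants lie lowest for gabra6a (4.83 to 6.37 CPM), uninjected wild type lies lowest for gabrr1 on average, and the injected libraries lie above the uninjected ones for gabrd in both genotypes. The gabrd difference passed the test in wild type only.

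The zebrafish gene gabrz was lower in rraga mutants at a low level, with 1.86, 1.18 and 0.503 against 2.50, 2.19 and 3.83 CPM (-1.25 ± 0.40, edgeR adjusted p = 0.0392). Without wild-type replicate 1 or 3 or mutant replicate 2 or 3 its adjusted p was 0.0613 to 0.178, and with only these groups in the fit it was 0.0935. An antisense gene overlaps it. The delta subunit gene gabrd rose with zymosan in wild type from 44.8, 34.3 and 49.0 to 56.5, 66.9 and 52.7 CPM (0.46 ± 0.13, edgeR adjusted p = 0.0305). This was lost without uninjected replicate 1 or 2 or injected replicate 1 or 2 (adjusted p = 0.0550 to 0.209).

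Of the 5 glycine receptor genes, glra1, the alpha1 gene of spinal cord and hindbrain inhibition, was lower in rraga mutants, with 54.4, 50.6 and 54.9 against 65.4, 73.0 and 66.2 CPM (-0.36 ± 0.10, edgeR adjusted p = 0.0148). The groups did not overlap, and the call was lost without wild-type replicate 2 or mutant replicate 2 (adjusted p = 0.0882 and 0.0707). The gene glrba, for the beta subunit that links the receptor to its scaffold, was higher in triple mutants than in wild type after zymosan, at 9.89, 7.31 and 9.74 against 4.67, 4.93 and 3.02 CPM (1.09 ± 0.29, edgeR adjusted p = 0.0126). Without mutant replicate 1 its adjusted p was 0.0531. The other 3 glycine genes passed in no comparison.

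The muscle nicotinic receptor showed opposite changes of its subunit genes in triple mutants. The beta1 gene chrnb1 (ENSDARG00000069660, chromosome 7, 22543963 to 22580026) had 4.74, 4.75 and 6.71 CPM in uninjected wild type and 12.5, 10.7 and 11.5 in uninjected triple mutants. After zymosan it had 4.2, 4.34 and 5.48 in wild type and 12.3, 14.6 and 14.4 in triple mutants. All 6 mutant libraries lay above all wild-type ones, by 1.1 ± 0.24 uninjected (2.15-fold, edgeR adjusted p = 0.00324) and 1.55 ± 0.24 after zymosan (2.93-fold, edgeR adjusted p = 8.02e-05). In rraga mutants it had 4.65, 3.31 and 1.79 CPM and did not pass.

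The epsilon gene chrne (ENSDARG00000034307, chromosome 5, 38440099 to 38451082), of the mature receptor, had 13.9, 12.2 and 14.5 CPM in uninjected wild type and 7.12, 5.63 and 4.2 in uninjected triple mutants, a fall of 2.39-fold (-1.25 ± 0.28, edgeR adjusted p = 0.00426). After zymosan triple mutants had 10.6, 2.98 and 8.88 CPM against 14.1, 12.7 and 11.6 in wild type (-0.77, edgeR adjusted p = 0.0718). The gamma gene chrng (ENSDARG00000086647, chromosome 2, 45081489 to 45097743), of the fetal receptor, rose with zymosan in both genotypes. It went from 1.09, 1.43 and 2.00 to 3.66, 5.72 and 5.60 CPM in wild type (3.34-fold, 1.74 ± 0.38, edgeR adjusted p = 0.00408). In triple mutants it went from 0.622, 0.891 and 0.751 to 3.12, 2.03 and 2.43 CPM (3.30-fold, 1.72 ± 0.41, edgeR adjusted p = 0.00611). Injected and uninjected libraries did not overlap in either genotype. The alpha1 gene chrna1 had 31.8 to 44.2 CPM over all 15 libraries, and neither it nor the delta gene chrnd passed in any comparison.

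Skeletal muscle markers moved in the triple mutants too. Of 34 tested, 1 was higher and 11 lower uninjected (2.94% and 32.4%, beside 3.93% and 5.84% of all genes). Between injected genotypes 1 was higher and 10 lower (2.94% and 29.4%, beside 5.21% and 6.66%). With zymosan in wild type 0 were called in either direction (beside 6.07% higher and 3.83% lower of all genes). With zymosan in triple mutants 1 was higher and 0 lower (2.94% and 0%, beside 7.64% and 5.18%). The list's summed level was 114134 to 150119 CPM in uninjected triple mutants and 148424 to 170872 in uninjected wild type, which overlapped. The higher marker in uninjected triple mutants was the alpha-actinin gene actn3a (3.04 ± 0.22, edgeR adjusted p = 8.09e-10). Among the lower ones there was desma, the desmin gene (-0.87 ± 0.10, edgeR adjusted p = 1.63e-06). In rraga mutants 5 markers were higher and 3 lower (14.7% and 8.82%, beside 7.58% and 6.41% of all genes). There too actn3a was higher (1.76 ± 0.21, edgeR adjusted p = 3.24e-06) and desma lower (-0.48 ± 0.10, edgeR adjusted p = 0.00193). The part of muscle tissue in the changes of chrnb1 and chrne was not tested.

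Some of the genes that place this receptor at the junction were read as well. The gene rapsn (chromosome 18), whose protein rapsyn clusters the receptor, had 1.92, 2.04 and 1.48 CPM in uninjected wild type and 0 in all 3 uninjected triple-mutant libraries. That is 0 counts against 74, at least 28.0-fold lower when the group's 0 is set to 3 counts (edgeR adjusted p = 0.000172). After zymosan it was 4 counts against 61 (-3.71 ± 0.85, edgeR adjusted p = 0.00525). Neighbours of rapsn were not counted, and the part of its chromosome segment in this change was not tested. The receptor kinase gene musk was higher than uninjected wild type in uninjected triple mutants (0.85 ± 0.22, edgeR adjusted p = 0.0128), with zymosan in wild type (0.99 ± 0.22, edgeR adjusted p = 0.0039) and in rraga mutants (1.18 ± 0.22, edgeR adjusted p = 0.000599). The agrin gene agrn went the other way in rraga mutants (-0.68 ± 0.15, edgeR adjusted p = 0.00301).

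Of the other 16 nicotinic genes the accessory beta3 gene chrnb3a (ENSDARG00000052764, chromosome 1, 22388799 to 22412042) changed most. It had 9.36, 9.73 and 9.67 CPM in uninjected wild type, 7.16, 9.01 and 7.11 in injected wild type and 6.44, 8.54 and 9.48 in rraga mutants. Triple mutants had 2.63, 1.89 and 1.88 uninjected and 1.41, 0.677 and 1.29 after zymosan. All 6 triple-mutant libraries lay below the other 9. The fall was 4.49-fold uninjected (-2.17 ± 0.25, edgeR adjusted p = 2e-06) and 6.89-fold after zymosan (-2.79 ± 0.28, edgeR adjusted p = 1.61e-07).

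With zymosan the level of chrnb3a in triple mutants also fell (-0.92 ± 0.30, edgeR adjusted p = 0.045). This was lost without uninjected replicate 1, 2 or 3 or injected replicate 2 or 3 (adjusted p = 0.0586 to 0.214), with only these groups in the fit (0.176) and with no low-count filter (0.0516). The closest nicotinic genes on chromosome 1 are chrna6, 69.7 kb away, and chrnb2a beyond it. They had 0.31 ± 0.31 and -1.11 ± 0.65 in uninjected triple mutants, and neither passed in any comparison. The brain subunit gene chrnb2b was lower in rraga mutants (41.8, 42.1 and 40.3 against 50.5, 51.1 and 50.4 CPM, -0.29 ± 0.10, edgeR adjusted p = 0.042). It was higher with zymosan in triple mutants (52.5, 49.6 and 52.3 against 38.0, 42.8 and 43.7 CPM, 0.31 ± 0.09, edgeR adjusted p = 0.0315). The first call was lost without any 1 of its 6 libraries (adjusted p = 0.0808 to 0.111) and with no low-count filter (0.0938). The second was lost without any 1 except uninjected replicate 3 (adjusted p = 0.0531 to 0.142) and with no low-count filter (0.0810).

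Among the 4 tested muscarinic genes, chrm4a (ENSDARG00000069254, chromosome 7, 39180876 to 39203799) is a copy of the gene for the M4 receptor. It had 24.1, 24.6 and 20.3 CPM in uninjected triple mutants and 34.9, 33.4 and 36.3 after zymosan, a clear separation (1.51-fold, 0.60 ± 0.11, edgeR adjusted p = 0.000843). In wild type it had 27.2, 29.0 and 33.9 uninjected and 38.1, 40.7 and 34.6 after zymosan, which did not pass (0.33, edgeR adjusted p = 0.0655). Against uninjected wild type it was lower in uninjected triple mutants (-0.38 ± 0.12, edgeR adjusted p = 0.0383) and in rraga mutants, with 22.8, 23.4 and 22.8 CPM (-0.38 ± 0.12, edgeR adjusted p = 0.0286). The first was lost without wild-type replicate 2 or 3 or any 1 mutant library (adjusted p = 0.0547 to 0.221), with no low-count filter (0.0635) and with only these groups in the fit (0.0534). The second was lost without the same wild-type libraries or any 1 rraga library (adjusted p = 0.0579 to 0.164).

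Among the 8 tested dopamine genes, drd4a (ENSDARG00000038363, chromosome 25, 4707173 to 4733221), for a Gi-coupled D4 receptor, had 10.8, 9.95 and 10.4 CPM in uninjected and 6.85, 6.77 and 6.73 in injected wild type (-0.61 ± 0.19, edgeR adjusted p = 0.0395, lost without any 1 library as given above). In triple mutants it went from 7.33, 8.75 and 7.73 to 4.53, 3.18 and 5.08 CPM (-0.90 ± 0.20, edgeR adjusted p = 0.00276). Injected libraries lay below uninjected ones in both genotypes. Injected triple mutants were also below injected wild type (-0.67 ± 0.20, edgeR adjusted p = 0.0272), which was lost without wild-type replicate 1 or 2 or mutant replicate 1 or 2 (adjusted p = 0.0569 to 0.172), with only these groups in the fit (0.110) and with no low-count filter (0.0513). The D3 gene drd3 was higher in uninjected triple mutants at a low level, with 2.56, 2.51 and 2.25 against 0.705, 0.679 and 0.871 CPM (1.69 ± 0.51, edgeR adjusted p = 0.0343). The groups were well apart, and the adjusted p was 0.0723 to 0.119 without any 1 of the 6 libraries. Of its 51 tested neighbours within 1 Mb on chromosome 24, 16 were also higher (31.4%, beside 3.93% of all genes) and 0 lower. The part of these neighbours in the value of drd3 was not tested. The D1 gene drd1b, the highest per length, had 9.30, 9.43 and 12.6 CPM in uninjected wild type and passed in no comparison.

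No serotonin receptor gene of the 12 tested passed in any comparison. The abundant 5-HT1A gene htr1aa had 9.49, 6.79 and 12.7 CPM in uninjected wild type and the channel gene htr3a 8.78, 7.31 and 7.58. Over all groups htr1aa ran from 6.18 to 12.7 CPM. The gene tph2 (chromosome 18), for the enzyme that makes serotonin in the brain, had 50 counts in uninjected wild type and 1 in uninjected triple mutants. That is 1.19 ± 0.588 against 0.0186 ± 0.0322 CPM (edgeR adjusted p = 0.00201), a ratio of 56.7 (95% counting interval 9.72 to 2283). It shares chromosome 18 with rapsn, which was also nearly empty in these mutants. Neighbours of tph2 were not counted, and the part of its chromosome segment was not tested.

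Genes beside the mutated loci were set apart. The members within 5 Mb of a targeted gene were grm6b, grm6a and gria3b. The gene grm6b, for a receptor of retinal ON bipolar cells in mammals, lies 0.11 Mb from tfe3b and 3.27 Mb from tfeb on chromosome 11. It had 4.04, 5.35 and 4.18 CPM in uninjected wild type and 6.22, 6.80 and 4.35 in uninjected triple mutants, which overlapped (0.36 ± 0.31, edgeR adjusted p = 0.563). The other copy, grm6a, lies 0.72 Mb from tfe3a on chromosome 8 and had -0.10 ± 0.19 (edgeR adjusted p = 0.825). The gene gria3b lies 1.19 Mb from rraga on chromosome 14, which carries 14 members in all. The gene grm2b lies on the chromosome of tfeb and tfe3b, but 10.64 Mb from tfe3b.

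Most genes around gria3b were lower in rraga mutants as well. Of 14 tested genes other than receptors within 1 Mb of it, 11 were lower (78.6%, beside 6.41% of all genes). All 11 were over 4-fold lower, and 0 of the 14 were higher. Their median change was -4.88 fitted, and -4.54 with the 5 genes at 3 or fewer counts in the mutants set to their counting ratio or bound. Among them hspa9, for a mitochondrial chaperone, had 201 counts against 3466 (-4.14), and the histone deacetylase gene hdac3 had 1 against 509. Between gria3b and these low genes, on the same flank, lie thoc2 and magt1, which had 0.16 and 0.23 and did not pass. On the side towards rraga, si:dkey-35h6.1, at a gap of 0.20 Mb, had 6 counts against 171 (-4.75, edgeR adjusted p = 2.08e-05), and pls3, at 0.62 Mb, had 1635 against 1603. The median level of the 14 genes relative to uninjected wild type was 0.04, 0.06 and 0.01 in the rraga libraries.

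In uninjected triple mutants, where rraga was not targeted, 9 of these 14 genes were lower (64.3%, beside 5.84% of all genes) and 0 higher, with a median of -1.45. The 5 that did not pass were thoc2 (0.57), magt1 (-0.28), pls3 (-0.23), kctd12b (-0.17) and frmpd3 (-0.07). The median level of all 14 relative to uninjected wild type was 0.34, 0.40 and 0.40 in uninjected triple mutants and 0.48, 0.25 and 0.39 after zymosan. In injected wild type it was 0.80, 1.02 and 0.87. The gene gria3b and most of the tested genes around it were thus lower in both uninjected mutants. In the triple mutants the call of gria3b itself was lost in 4 of 6 fits with 1 library left out. The part of the neighbouring genes in its change was not tested.

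Around grm2b the low genes form a small block. Of 28 tested neighbours within 1 Mb, 4 were lower in uninjected triple mutants and 4 higher, with a median of 0.19. The 8 called are 28.6% of them, beside 9.77% of all genes (5.84% lower, 3.93% higher). The 4 lower genes lie within 0.06 Mb of grm2b on the same flank or overlap it. The gene rrp9 had 0 counts against 71, zgc:172270 0 against 31, sort1a 17 against 179 and nfya 25 against 99. At 3 counts for the mutants' 0, rrp9 was at least 26.8-fold lower and zgc:172270 at least 11.7-fold lower. In rraga mutants 0 of these 28 genes was lower and 4 were higher, where 6.41% of all genes were lower and 7.58% higher.

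**Figure D5:**
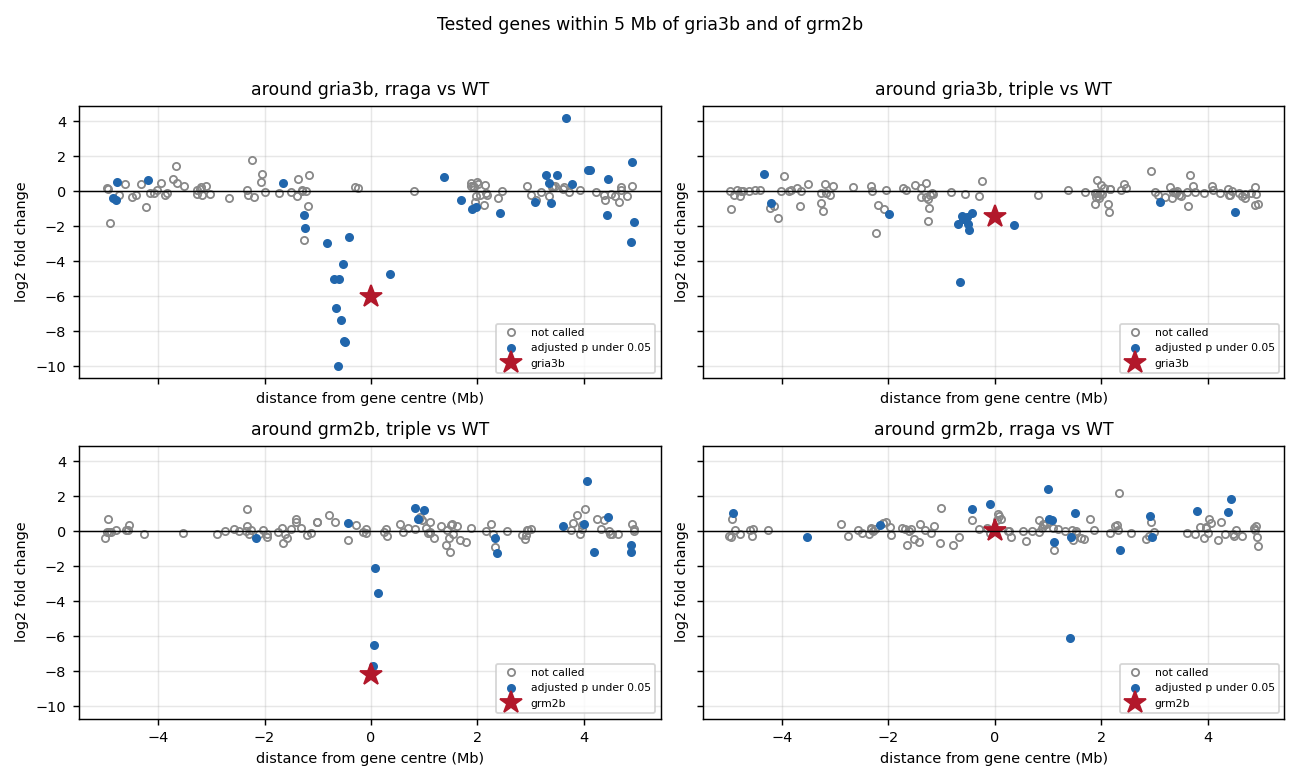
Log2 fold change (y axis) of every tested gene against its distance in Mb from the centre of gria3b (top) or grm2b (bottom), in rraga mutants and in uninjected triple mutants, each against uninjected wild type. Blue points passed an adjusted p of 0.05 and the star is the receptor gene; a block of low genes lies mostly to the left of gria3b in rraga mutants (11 of 14 within 1 Mb), with smaller changes there in triple mutants (9 of 14), and 4 low genes lie just to the right of grm2b in triple mutants.

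The same count was made for every called receptor gene. In uninjected triple mutants 18.5% of the neighbours within 1 Mb of the 10 called receptors were called themselves, beside 9.77% of all genes. In rraga mutants it was 21.9% for 12 receptors beside 14.0%. It was 12.5% beside 11.9% between the injected genotypes, 12% beside 12.8% with zymosan in triple mutants and 7.44% beside 9.90% with zymosan in wild type. The neighbours of drd3 in uninjected triple mutants stood above the background like those of gria3b and grm2b, with 16 of 51 called (31.4%), all 16 higher, the direction of drd3 itself. Around chrne 8 of 42 were called, with 3 higher and 5 lower, around chrnb3a 3 of 26, with 2 higher and 1 lower, and around chrnb1 1 of 29. In rraga mutants 20 of 59 neighbours of gria3a were called (33.9%), with 8 higher and 12 lower. What part of a receptor's change belongs to its chromosome segment was not tested.

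Genes that work with the receptors were counted from lists. Of 58 tested genes for synaptic scaffolds, auxiliary subunits and clustering factors, 2 (3.45%) were higher and 12 (20.7%) lower in rraga mutants, beside 7.58% and 6.41% of all genes, with a median of -0.21. The lower ones include the presynaptic adhesion gene nrxn1a (-0.89 ± 0.12, edgeR adjusted p = 1.9e-05), the AMPA auxiliary gene cacng3b (-0.55 ± 0.10, edgeR adjusted p = 0.000431), the GABA-B receptor gene gabbr1a (-1.45 ± 0.34, edgeR adjusted p = 0.00511) and the gephyrin gene gphnb (-0.40 ± 0.11, edgeR adjusted p = 0.0192). The counts were 2 higher and 2 lower in uninjected triple mutants, 2 and 3 in injected ones, 2 and 0 with zymosan in wild type and 1 and 2 with zymosan in triple mutants, from 0 to 5.17% of the list in a direction beside 3.83% to 7.64% of all genes.

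Of 41 tested genes for transmitter synthesis, transport and breakdown, 5 (12.2%) were higher and 3 (7.32%) lower in rraga mutants, beside 7.58% and 6.41% of all genes. The lower ones were the vesicular glutamate transporter gene slc17a6b (-0.84 ± 0.12, edgeR adjusted p = 2.64e-05), the GABA-synthesizing enzyme gene gad2 (-0.34 ± 0.08, edgeR adjusted p = 0.00689) and the vesicular acetylcholine transporter gene slc18a3a (-0.34 ± 0.09, edgeR adjusted p = 0.0173). The 5 higher ones were slc1a2a (0.58 ± 0.16), glula (0.57 ± 0.14), slc17a7b (0.47 ± 0.14), abat (0.44 ± 0.11) and mao (0.36 ± 0.09). Their edgeR adjusted p ran from 0.00558 to 0.0305. Between injected genotypes the counts were 4 and 2 (9.76% and 4.88%, beside 5.21% and 6.66% of all genes). With zymosan they were 4 and 1 in wild type (9.76% and 2.44%, beside 6.07% and 3.83%). In triple mutants with zymosan they were 3 and 0 (7.32% and 0%, beside 7.64% and 5.18%). In uninjected triple mutants 4 were higher and 2 lower (9.76% and 4.88%, beside 3.93% and 5.84% of all genes). Among the higher were gad2 (0.37 ± 0.08, edgeR adjusted p = 0.00495) and slc17a6b (0.40 ± 0.11, edgeR adjusted p = 0.0245). The glutamine synthetase gene glula, a gene of glia, rose with zymosan in wild type (1.2 ± 0.14, edgeR adjusted p = 1.63e-06) and in triple mutants (1.06 ± 0.14, edgeR adjusted p = 6.4e-06). Against uninjected wild type it was also higher in uninjected triple mutants (0.43 ± 0.14, edgeR adjusted p = 0.047) and, as given above, in rraga mutants. Of 11 tested radial glia markers, 2 were higher and 2 lower in rraga mutants (18.2% each, beside 7.58% and 6.41% of all genes), and their summed level was 1202 to 1299 CPM against 1164 to 1265 in uninjected wild type. In uninjected triple mutants 2 of them were higher (18.2% beside 3.93% of all genes) and 0 lower (beside 5.84%). Between injected genotypes it was 1 and 1 (9.09% each, beside 5.21% and 6.66%). With zymosan it was 1 and 0 in wild type (9.09% and 0%, beside 6.07% and 3.83%). The same counts held in triple mutants (beside 7.64% and 5.18%). The gene glula is in this list as well, so these counts are not separate from its own changes. It was the 1 marker higher with zymosan in each genotype. It was also 1 of the 2 higher in uninjected triple mutants and in rraga mutants.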

How the data were processed

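The tools named per the submitters' processing notes are HISAT2 2.0.5 (an aligner), StringTie 1.3.3b (an assembler of transcripts) and featureCounts 1.5.0 (a read counter), with genome build GRCz11. The authors deposited 3 tables of 6 libraries with raw counts per gene, and those deposited counts were used here. The tables list genes with at least 2 counts in total, were joined by gene identifier, and a gene missing from one was set to 0. Uninjected wild type stands in both uninjected tables with identical counts and was used once. Tables held scaled values too, which were not used here. The tables' gene length gave levels per kilobase.

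All 15 libraries were fitted in 1 model with a mean per group in edgeR 4.0.16 (R 4.3.3), with TMM scaling, filterByExpr, quasi-likelihood F-tests and Benjamini-Hochberg adjustment over 19006 genes in each contrast, at a threshold of 0.05. CPM use TMM-scaled library sizes. Values after ± are SE for log2 changes and SD for levels. The code was tested on simulated data. Alternatives were DESeq2 1.42.0, its size factors, other low-count filters, a replicate block, the compared groups alone and each library left out. Of 15 pairs of replicates 0 were identical. Precision is limited by depth, and intervals and floors of 3 counts cover counting error only, since reads without molecular identifiers are not independent molecules.

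The members, gene lists and tests were chosen with earlier results of these data known. Genes named are all members past the threshold, up to 12 per direction and contrast, the highest gene per class by CPM per kb in uninjected wild type, members within 5 Mb of a targeted gene and the targeted genes. The related genes rapsn, musk, tph2, glula and others called in a list, and neighbours of gria3b and grm2b, were named after their values were seen. Some members are not reported here by name, and the counts include them.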

Additional observations from a re-analysis of the deposited data

How the results depend on the processing

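No value past the threshold changed direction in any alternative. The value of grm6a in uninjected triple mutants, which did not pass (-0.10), was 0.04 without uninjected wild-type replicate 3. Of the 47 calls, 22 held in every alternative run, including each library left out, and 36 held in all alternatives that kept every library. After zymosan the count higher in triple mutants was 5 with no low-count filter and 5 with DESeq2 (3 reported), and the count lower was 3 with the compared groups alone (6 reported). With zymosan in wild type the count lower was 0 with the replicate block and 2 with DESeq2 (1 reported). In rraga mutants the count higher was 2 with DESeq2 (1 reported). Cause was not tested in any of these cases.

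With single libraries left out, the counts higher and lower ran from 3 to 5 and 3 to 4 in uninjected triple mutants, 2 to 5 and 3 to 8 between injected genotypes, 2 to 5 and 0 to 1 with zymosan in wild type, 2 to 4 and 3 to 6 with zymosan in triple mutants, and 1 to 2 and 5 to 16 in rraga mutants. The interaction stayed at 0 in both directions. Without gria3b, the member near rraga, 10 genes were lower in rraga mutants.

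Replicate numbers showed no clear pairing of the samples: of 30 same-number pairs, 2 had a correlation of deviations over 0.1 (range -0.244 to 0.23), and 1 of 15 samples correlated best with its own number. Such correlations cannot decide whether libraries of the same number share an origin, which the labels do not give. With the replicate block 1694, 2156, 1710, 2291, 20 and 2439 genes were called, against 1856, 2255, 1881, 2437, 27 and 2659, in the contrasts of uninjected and injected genotypes, zymosan in wild type and in triple mutants, interaction and rraga. Under the block 4 calls of receptor genes missed the threshold: chrm4a in uninjected triple mutants (0.0554), drd4a with zymosan in wild type (0.0560), chrnb3a with zymosan in triple mutants (0.0624) and chrnb2b in rraga mutants (0.0623). Depth limits the 17 untested genes and thinly read ones such as grm3, drd3 and gabrp. Without strand information, overlapping genes cannot be told apart.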
